A study of Rattus norvegicus with 21 samples.

Results

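The genes described are 10 genes of glutamate signalling, taken by symbol from the platform annotation out of 14506 gene symbols that had a probe set of their own. They were the vesicular glutamate transporters Slc17a6 and Slc17a7, the AMPA receptor subunits Gria1, Gria2, Gria3 and Gria4, the NMDA receptor subunits Grin1 and Grin2a, and the kainate receptor subunits Grik1 and Grik2. Each had exactly 1 probe set on the array, so the rule of taking the probe set with the highest mean over the 21 arrays left no choice, and all 10 genes were measured. The family was chosen by name with the measured values of these arrays already known, and was selected on the high Slc17a6 level of the adenomas, so the values of Slc17a6 in adenomas and wild-type pituitaries are given as a description.

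RNA of pituitary tissue was hybridised to Affymetrix whole-transcript rat arrays. Values are RMA log2 values, on which a difference of 1 is a doubling of signal. The adenoma group held 16 pituitary lesions of rats homozygous for a p27Kip1 mutation (Cdkn1b, written Cdknb1 in the labels), a MENX model in which lesions arise in the anterior lobe mainly from gonadotroph cells. The 16 lesions carried 9 sample numbers, here adenomas 1 to 9, at ages of 7 to 12 months, with 6 numbers labelled female and 3 labelled male. The study's text gives more rats than there are sample numbers, and ages other than those of the labels, so the ages and units used here are those of the labels and the doubt bears on each age comparison. Adenomas 1, 2, 3, 5 and 9 had several lesions. The wild-type group held 5 normal pituitaries at 6 months, 2 female and 3 male. All animals were of the Sprague–Dawley white eye/Wistar–Kyoto background. Lesions of 1 number were averaged before any test, giving 9 adenoma values and 5 wild-type values. The labels do not say which samples came from separate rats, so p-values measure only the spread between these samples. Genotype, tumour and age cannot be told apart in this design, and the sources used here do not say whether wild-type glands included the posterior lobe.

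Neurons that use glutamate load it into synaptic vesicles through vesicular transporters, VGLUT1 from Slc17a7 and VGLUT2 from Slc17a6. Released glutamate opens ion channels built from AMPA, NMDA and kainate subunits, and is then taken up by plasma membrane transporters. Endocrine cells use parts of the same machinery, and in the rat anterior pituitary VGLUT2 has been described in gonadotrophs and thyrotrophs.

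Pituitary identity was clear in both groups: the prolactin gene Prl averaged 13.77 ± 0.08 in adenomas and 13.69 ± 0.12 in wild-type pituitaries (SD, n = 9 and 5), and Cga, the common gonadotropin alpha subunit, averaged 13.77 ± 0.05 and 12.86 ± 0.33, beside a highest value of 14.09 in the whole table. Array medians ran from 6.36 to 6.53. Cdkn1b ran from 8.99 to 9.55 in adenomas and from 8.65 to 9.11 in wild-type pituitaries, and was called higher in adenomas (log2 fold change 0.33, SE 0.098, adjusted p = 0.0324 from limma). Its mutation leaves the transcript in place, so this level checks no label.

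Adenoma 3 lay mostly on the side opposite its sex label when arrays were compared by sex. Of all probe sets, 98 separated the other 18 arrays completely by labelled sex, 67 higher and 31 lower in females. The 3 lesions of adenoma 3, labelled male, lay on the female side of 79, 98 and 87 of these 98 probe sets, where the side is read from the midpoint of the gap between the sexes. Only 1 probe set, that of Dpy19l3, separated all 21 arrays by labelled sex, with lesion 2 of adenoma 3 inside the gap between the other arrays, nearer to the females. The 98 probe sets were picked by their separation of these same arrays, and the only other adenomas labelled male were adenomas 2 and 5. Whether the label is wrong was not tested. The label was kept, and sex tests that include the adenomas are given with and without adenoma 3. The first lesion of the same adenoma also stood apart, with a mean absolute log2 difference of 0.253 from the median lesion, against 0.151 to 0.199 in the other 15 lesions.

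Of the 10 genes, 1 rose in adenomas at an adjusted p under 0.05, where 8.49% of all 29214 probe sets rose, and none fell, where 9.06% of all fell (limma, Benjamini-Hochberg). The 1 was Slc17a6, whose level selected the family, so its count is a description. At an unadjusted p under 0.05, 1 gene was higher and 1, Slc17a7, was lower, beside 14.6% and 18% of all probe sets, and the methods' t-test with each lesion as a sample called that gene lower after adjustment. The median log2 fold change of the 10 genes was -0.08, beside -0.03 over all probe sets.

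**Figure D1:**
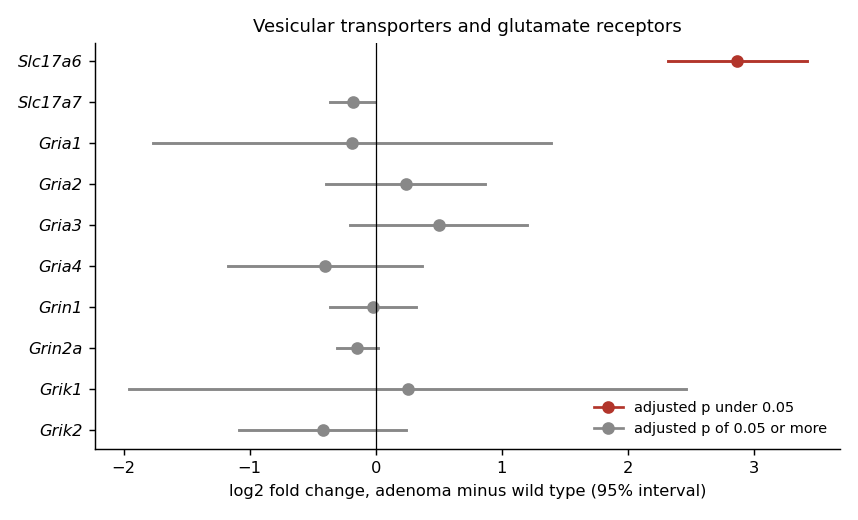
Log2 fold change of each of the 10 genes, 9 adenomas minus 5 wild-type pituitaries, as points with 95% intervals from limma. Slc17a6 lies at 2.87, and the intervals of Gria1 and Grik1 are the widest of the 10.

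Slc17a6, which encodes VGLUT2, was the gene that rose. The 9 adenoma values ran from 9.64 through a median of 9.88 to 10.47. The wild-type values were 7.45, 8.27, 7.01, 6.66 and 6.15. The groups did not overlap, as was the case for 4.82% of all probe sets. The adenoma values, averaged where a number had several lesions, lay within 1 log2 unit of each other. The wild-type pituitaries, each a single array, spread over 2, and so did the single lesions, from 8.37 to 10.85.

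Slc17a6 averaged 9.98 ± 0.26 in adenomas and 7.11 ± 0.81 in wild-type pituitaries (SD, n = 9 and 5), a log2 fold change of 2.87 (SE 0.26), or 7.31-fold. All 16 lesions lay above the highest wild-type pituitary. The lowest of them, at 8.37, was the first lesion of adenoma 3, the one that stood apart, while the other 2 lesions of that adenoma were at 10.42 and 10.85. Without that lesion the log2 fold change was 2.95. The sample numbers begin with 08 or 09, and the log2 fold change was 2.05 within prefix 08 and 3.46 within prefix 09. In bulk tissue, fewer cells of a type and less RNA per cell cannot be told apart, and the same holds for more cells and more RNA.

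**Figure D2:**
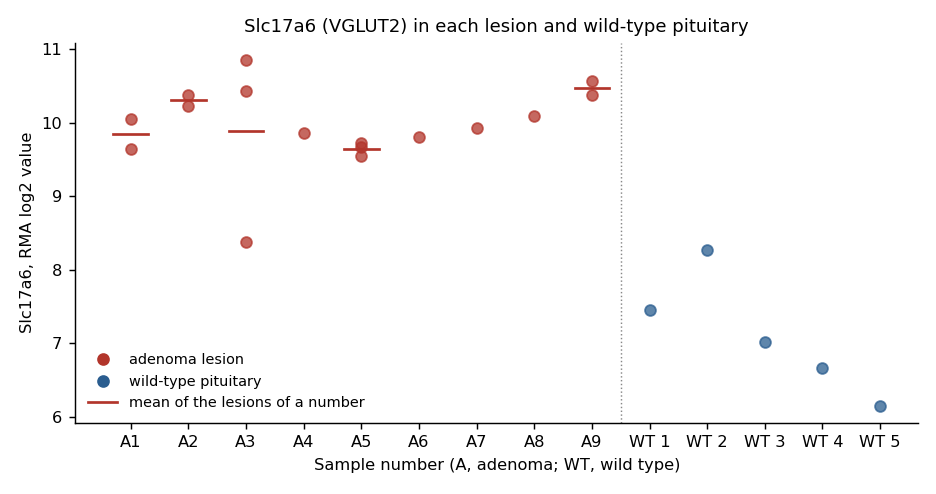
RMA log2 value of Slc17a6 in each of 16 lesions of 9 adenoma sample numbers (A1 to A9) and in each of 5 wild-type pituitaries (WT 1 to WT 5); bars are the mean of the lesions of 1 number. Every lesion lies above the highest wild-type value of 8.27, the lowest being a lesion of adenoma 3 at 8.37.

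Gonadotroph and neuronal markers moved beside this gene as follows. Of 4 gonadotroph markers, Cga and the GnRH receptor gene Gnrhr rose (log2 fold changes of 0.91 and 1.40), while the hormone subunit genes Lhb and Fshb fell by 2.24 and 2.38. Their summed unlogged level was 17138 to 20222 in adenomas, against 7549 to 16821 in wild-type pituitaries, a sum that follows Cga and Gnrhr and does not show the lower Lhb and Fshb. Of 14 markers of hypothalamic axons and neurons, the neurofilament gene Nefh rose and Oxt, Syt1, Syn1 and Map2 fell, and their summed level was 4207 to 6373 in adenomas, against 4451 to 6135 in wild-type pituitaries. Of 2 thyrotroph markers, the hormone gene Tshb fell by 3.75, and the receptor gene Trhr had a log2 fold change of 0.53 that did not pass (adjusted p = 0.228 from limma). The part of these cell types in the Slc17a6 difference was not tested.

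The probe sets most like Slc17a6 over the 14 values were those of Rida (r = 0.97), Bex3 (0.97), Cga (0.96), Hagh (0.96) and Metrnl (0.96). These were picked as the highest Pearson correlations, and the 14 values form 2 separate groups, so they describe a shared step between groups. Among the 9 adenomas alone the same correlations were 0.21, 0.32, -0.06, 0.77 and -0.12. Cga ran only from 13.71 to 13.86 in these adenomas, near the highest value of 14.09 in the whole table. Its correlation of -0.06 therefore says little.

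The window before the start of Slc17a6 is shown because this was the gene with the step between groups. RefSeq promoter sequences (GRCr8) matched 6 of the 10 genes: Slc17a6, Slc17a7, Gria4, Grin1, Grik1 and Grik2. The 250 bases before the Slc17a6 start lie at chr1:110348197-110348446 on the plus strand, with matches to the E-box CANNTG in capitals.
Slc17a6: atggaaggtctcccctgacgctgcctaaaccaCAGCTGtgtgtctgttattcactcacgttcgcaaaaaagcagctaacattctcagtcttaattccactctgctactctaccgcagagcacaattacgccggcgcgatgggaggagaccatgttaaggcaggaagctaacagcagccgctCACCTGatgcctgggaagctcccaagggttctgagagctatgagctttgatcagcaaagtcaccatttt
The first bases of the matches lie 218 and 69 bases before the start. CANNTG, the site bound by basic helix-loop-helix factors, reads the same on both strands. It occurred in this window for 5 of the 6 genes and for 65.5% of all 33469 promoters. Its CAGCTG form, which is counted within CANNTG and which the match at 218 has, occurred for 3 of the 6 and for 12% of all. The SF-1 half-site AAGGTCA, searched on both strands, was in none of the 6 windows and in 3.99% of all promoters.

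Slc17a7, which encodes VGLUT1, did not pass the test. The adenoma values ran from 5.52 through a median of 5.64 to 5.92, and the wild-type values were 5.79, 5.71, 5.99, 6.01 and 5.80. In all, 7 adenomas lay below every wild-type pituitary, and adenomas 4 and 6 lay among the wild-type values. The log2 fold change was -0.18 (SE 0.08, adjusted p = 0.146 from limma, 95% interval -0.36 to -0.0032). Its level was below the table's median of 6.45, as were those of Gria3 and Grin2a.

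The AMPA receptor is built from the subunits GluA1 to GluA4, the products of Gria1 to Gria4. None passed the test between adenomas and wild-type pituitaries, but Gria1 differed widely among the adenomas themselves.

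Gria1 ran in the 9 adenomas from 5.12 through a median of 8.16 to 10.06. The wild-type values were 9.46, 7.23, 7.87, 7.81 and 8.22. Adenomas 2 and 5, both labelled male, were at 5.12 and 5.52, well below all wild-type pituitaries, while adenomas 8 and 9, labelled female, were at 9.83 and 10.06, above all of them. The lesions of 1 number were close to each other: adenoma 2 had 5.14 and 5.10, adenoma 5 had 5.59, 5.28 and 5.70, and adenoma 9 had 10.01 and 10.10. The SD between lesions of a number was 0.21, against 1.74 between numbers. The log2 fold change of -0.19 (SE 0.74, adjusted p = 0.889 from limma) had an interval from -1.77 to 1.39, wide enough to hold changes of either sign. It was -1.48 within prefix 08 and 1.30 within prefix 09, whose adenomas were all labelled female.

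Gria2 encodes the subunit that keeps AMPA channels largely closed to calcium. Its adenoma values ran from 8.15 through 8.87 to 10.00, against wild-type values of 8.49, 8.99, 9.13, 9.21 and 8.11. Above every wild-type pituitary lay 4 adenomas, and below them none, with a log2 fold change of 0.24 (SE 0.30, adjusted p = 0.617 from limma). The first lesion of adenoma 3 was the lowest lesion at 7.28, beside 8.58 and 8.61 in the other 2 lesions of that adenoma.

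Gria3 ran from 5.30 through 6.54 to 7.46 in adenomas. The wild-type values were 5.31, 6.55, 6.22, 6.55 and 5.14. Above all wild-type pituitaries lay 4 adenomas, and the groups otherwise overlapped (log2 fold change 0.50, SE 0.33, adjusted p = 0.315 from limma).

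Gria4 ran from 7.23 through 8.39 to 9.56 in adenomas, and the wild-type values were 9.63, 8.99, 8.17, 8.68 and 8.50. Adenomas 2, 5 and 7 lay below all wild-type pituitaries and none lay above, with a log2 fold change of -0.40 (SE 0.36, adjusted p = 0.474 from limma).

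NMDA receptors need the GluN1 subunit of Grin1, and Grin2a encodes GluN2A, one of its partners. Grin1 ran from 7.74 through 8.32 to 8.78 in adenomas. The wild-type values were 8.28, 8.03, 8.35, 8.47 and 8.44. In adenomas, 3 values lay above and 3 below all wild-type pituitaries, and the log2 fold change was -0.02 (SE 0.16, adjusted p = 0.938 from limma), with an interval from -0.37 to 0.32.

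Grin2a ran from 5.84 through 5.94 to 6.12 in adenomas, against 6.00, 5.94, 6.26, 6.00 and 6.30 in wild-type pituitaries. In 6 adenomas the value was below every wild-type pituitary, and the other 3 overlapped with them. The log2 fold change was -0.14 (SE 0.08, adjusted p = 0.213 from limma).

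Kainate receptors hold GluK1 from Grik1 and GluK2 from Grik2, among other subunits. Grik1 ran from 4.62 through 8.14 to 9.88 in adenomas. The wild-type values were 10.37, 5.87, 5.08, 6.02 and 9.96, and the groups overlapped over almost their whole range. The log2 fold change of 0.25 (SE 1.04, adjusted p = 0.892 from limma) had an interval from -1.96 to 2.47, the widest of the 10 genes, and was -1.29 within prefix 08 and 1.81 within prefix 09.

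Grik2 ran from 5.79 through 7.18 to 7.86 in adenomas. The wild-type values were 7.79, 7.31, 7.13, 7.56 and 7.15. Adenomas 1, 2, 3 and 5 lay below all wild-type pituitaries and adenoma 8 lay above. The log2 fold change was -0.42 (SE 0.31, adjusted p = 0.369 from limma).

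Among the adenomas, numbers 2 and 5 held the lowest pair of values for 6 of the 10 genes, Gria1, Gria4, Grin1, Grin2a, Grik1 and Grik2. The same pair was lowest for 7.27% of all probe sets. This was counted after the values were seen. Both are labelled male and carry prefix 08, with ages of 10 and 12 months.

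Grik1 was the gene of the 10 with the largest log2 difference between sex labels. In adenomas the 6 female values were 6.72 to 9.88 (median 8.77), and the 3 values labelled male were 4.62, 5.15 and, in adenoma 3, 8.14. In wild-type pituitaries the 2 female values were 10.37 and 9.96, and the 3 male values were 5.87, 5.08 and 6.02. Without adenoma 3, all 8 female values lay above all 5 male values, as they did for 0.486% of all probe sets. Grik1 was itself 1 of the 98 probe sets that placed adenoma 3 on the female side, so leaving that adenoma out is not independent of this gene.

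The sex comparison was added after these values were seen. With group as a covariate, Grik1 was higher in females than in males by a log2 difference of 3.33 (SE 0.62, adjusted p = 0.138 from limma), and no probe set was called in either direction (0%). At an unadjusted p under 0.05, 4 of the 10 genes and 5.06% of all probe sets were higher in females, and 0 genes and 4.80% of all were lower. Without adenoma 3 these were 5 genes and 6.61% higher, and 0 genes and 6.13% lower. Without adenoma 3 the difference in Grik1 was 4.06 (SE 0.47, adjusted p = 0.00677 from limma), and 0.209% of all probe sets were called higher and 0.192% lower in females. Grik1 was the only 1 of the 10 genes called, and it was still called with prefix 08 or 09 blocked (4.05, adjusted p = 0.00922 from limma). Without adenoma 1, and with adenoma 3 kept, the adjusted p was 0.0355. Every other fit that left out 1 sample and kept adenoma 3 did not call Grik1, with adjusted p of 0.160 to 0.489 (limma). In wild-type pituitaries alone the difference was 4.51 (SE 0.31, adjusted p = 0.0663 from limma), and in adenomas alone it was 2.62 (SE 0.84, adjusted p = 0.611 from limma), or 3.70 without adenoma 3 (SE 0.72, adjusted p = 0.128 from limma). Neither group passed on its own.

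**Figure D3:**
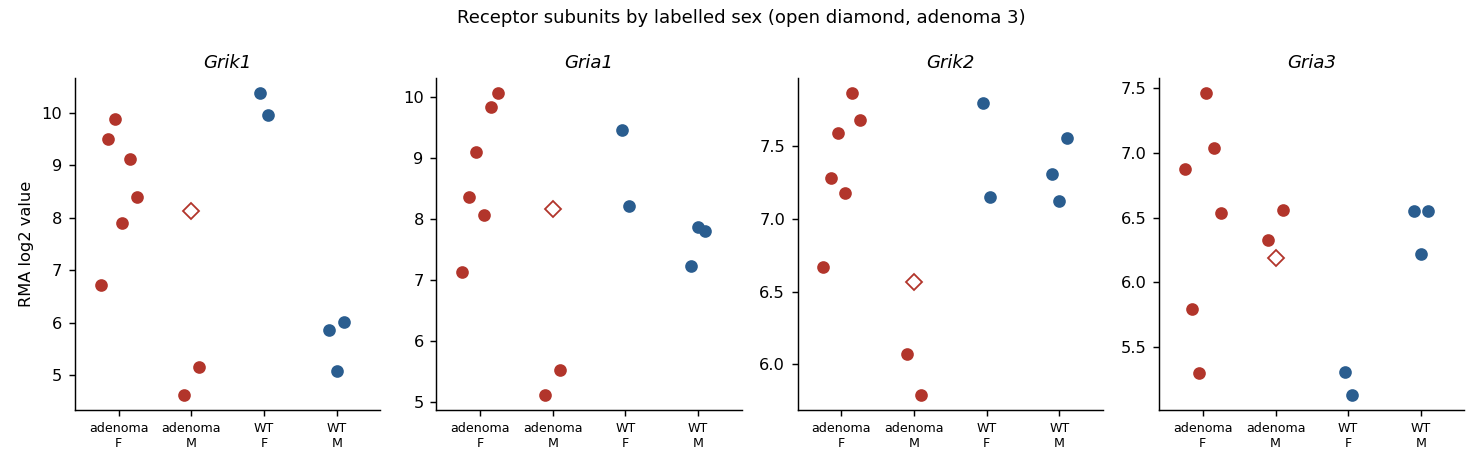
RMA log2 values of Grik1, Gria1, Grik2 and Gria3 by group and labelled sex (F, female; M, male), 1 point per adenoma sample number or wild-type pituitary, with adenoma 3 as an open diamond. For Grik1 adenoma 3, at 8.14, lies among the females of its group, while adenomas 2 and 5 lie with the wild-type males.

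Within adenoma 3 the lesions themselves differed in Grik1, at 9.00, 9.00 and 6.40. The last value lies between the 2 other adenomas labelled male and most females. Adenoma 1, labelled female, had lesions at 7.11 and 6.34, the lowest among the females.

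The window before Grik1 is shown because of this difference between sexes. The 250 bases before its start lie at chr11:41056504-41056753 on the minus strand, printed in the direction of the gene with CANNTG in capitals.
Grik1: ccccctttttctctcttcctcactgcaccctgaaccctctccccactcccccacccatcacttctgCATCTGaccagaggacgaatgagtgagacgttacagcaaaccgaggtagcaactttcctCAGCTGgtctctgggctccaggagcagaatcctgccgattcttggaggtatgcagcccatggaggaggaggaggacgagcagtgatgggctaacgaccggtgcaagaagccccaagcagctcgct
Matches begin 184 and 125 bases before the start, and the second has the CAGCTG form.

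Gria1, Grik2, Gria4 and Grin1 had differences of the same sign as Grik1. With adenoma 3 kept, Gria1 was 2.01 higher in females (SE 0.55, adjusted p = 0.302 from limma) and Grik2 0.83 higher (SE 0.24, adjusted p = 0.311 from limma). Without adenoma 3 the differences were 2.44 (adjusted p = 0.0712) and 0.87 (adjusted p = 0.172). Gria4 was 0.74 higher (SE 0.32, adjusted p = 0.468 from limma) and Grin1 0.31 higher (SE 0.15, adjusted p = 0.514 from limma). Without adenoma 3 they were 0.96 and 0.38 higher (adjusted p = 0.222 and 0.321 from limma). None of these genes passed the threshold. The Slc17a6 difference, female minus male, was -0.16 (SE 0.26, adjusted p = 0.883 from limma), or -0.21 without adenoma 3 (SE 0.29, adjusted p = 0.830 from limma). It averaged 10.00 ± 0.25 in female adenomas and 9.94 ± 0.34 in adenomas labelled male (SD, n = 6 and 3).

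Gria2 and Gria3 had values in wild-type females below all those in wild-type males, and neither passed the test. Gria3 was at 5.31 and 5.14 in wild-type females, against 6.55, 6.22 and 6.55 in wild-type males, and the adenoma values of both sexes, 5.30 to 7.46 in females and 6.19 to 6.56 in males, overlapped. Gria2 was at 8.49 and 8.11 in wild-type females, against 8.99, 9.13 and 9.21 in wild-type males. In wild-type pituitaries alone the differences were -1.22 for Gria3 (adjusted p = 0.258 from limma) and -0.81 for Gria2 (adjusted p = 0.397 from limma). These were the 2 of the 10 genes lower at an unadjusted p under 0.05, beside 3.78% of all probe sets. In the same comparison 2 were higher, Grik1 and Gria1, beside 2.77% of all probe sets. The Gria1 difference was 1.20 (adjusted p = 0.562 from limma).

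Whether the adenoma effect itself differed between sexes was tested with an interaction term. None of the 10 genes passed, with adjusted p of 0.638 to 0.949 (limma), and neither did any probe set (0%). At an unadjusted p under 0.05, 3 of the 10 genes and 6.78% of all probe sets had an interaction. The genes were Gria2, with adenoma effects of 0.87 in females and -0.39 in males, Gria3 with 1.28 and -0.08, and Grik2 with -0.09 and -1.19. Without adenoma 3 there were 2, Gria1 with -0.08 and -2.31 and Grik2 with -0.09 and -1.40, beside 6.33% of all probe sets. In that fit 1 probe set outside the 10 genes was called at the adjusted threshold (0.00342%).

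Age was examined among the 9 adenomas, since all wild-type pituitaries were of 6 months. No slope of the 10 genes passed the test (limma), and 1 probe set of all did (0.00342%). At an unadjusted p under 0.05 there were 4 genes, 2 with rising and 2 with falling values, and 11.8% of all probe sets.

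Gria3 was at 5.80 and 5.30 in the adenomas of 7 and 8 months, 6.32 and 6.19 at 10 months, 6.87 at 11 months and 6.56, 7.46, 7.04 and 6.54 at 12 months. Its slope was 0.29 log2 units per month (SE 0.06, adjusted p = 0.143 from limma). The older adenomas were all above both younger ones. Gria4 went the other way, at 9.56 and 9.43 at 7 and 8 months, 7.42 and 8.72 at 10 months, 8.32 at 11 months and 7.23, 7.93, 8.56 and 8.39 at 12 months, a slope of -0.31 (SE 0.10, adjusted p = 0.276 from limma). The slopes of Gria2 and Slc17a7 were 0.23 (SE 0.08, adjusted p = 0.337) and -0.07 (SE 0.02, adjusted p = 0.219). In female adenomas alone the Gria4 slope was -0.27 (SE 0.04, adjusted p = 0.0866 from limma) and that of Gria3 was 0.31 (SE 0.07, adjusted p = 0.167 from limma). Slc17a6 had a slope of 0.04 (SE 0.05), and its adenomas of 7 and 8 months were at 9.86 and 9.80.

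**Figure D4:**
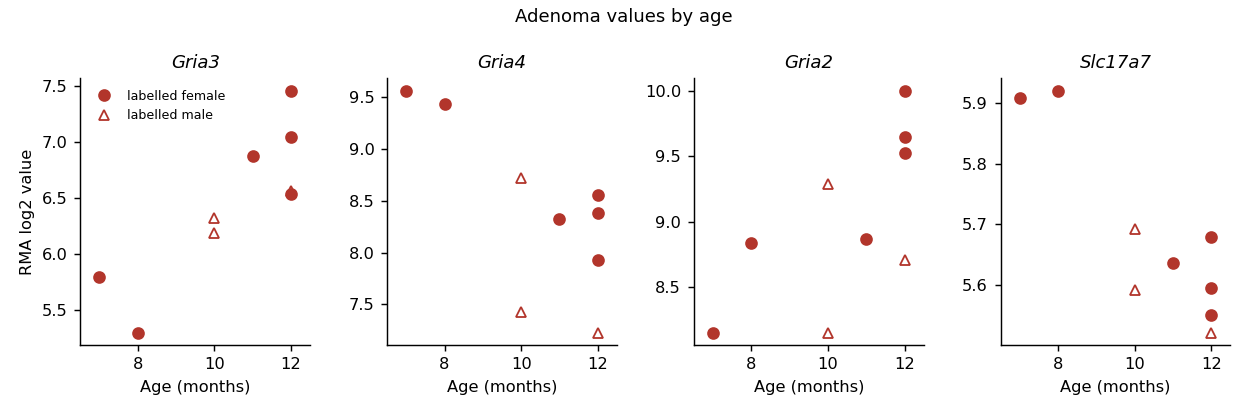
RMA log2 values of Gria3, Gria4, Gria2 and Slc17a7 in 9 adenomas by age in months, filled circles labelled female and open triangles labelled male. The 2 adenomas of 7 and 8 months, both female, are the highest for Gria4 and Slc17a7, and the lowest for Gria3.

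Lesions of 1 number were compared over the 12 lesions of 5 numbers. The SD between numbers is of values averaged over the lesions of a number, which lowers it. The SD within numbers is of single lesions, so the values of the pair are not of like quantities. The SD between lesions of a number was 0.72 for Slc17a6, against 0.26 between the 9 numbers, and with the first lesion of adenoma 3 left out these were 0.19 and 0.34. For the other genes it was 0.11 to 0.83 within numbers, against 0.10 to 1.86 between numbers. Grin2a was the only other gene with more spread within numbers than between them (0.13 and 0.10), and without that lesion its values were 0.094 and 0.098.

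The rest of the glutamate pathway was read from a list of 67 genes, of which 58 had a probe set of their own. In adenomas 8 rose and 8 fell at an adjusted p under 0.05, beside 8.49% and 9.06% of all probe sets, and their median log2 fold change was -0.04.

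Of 5 plasma membrane uptake genes measured, 3 fell and none rose, with a median log2 fold change of -0.76. Slc1a2, the main glial glutamate transporter GLT-1, ran from 5.51 through 5.65 to 6.37 in adenomas, against 6.52, 7.62, 7.92, 7.28 and 6.66 in wild-type pituitaries. The groups did not overlap, and Slc1a2 fell by 1.47 (SE 0.21, adjusted p = 0.000385 from limma). Slc1a1, the transporter EAAC1, fell by 0.76 (SE 0.17, adjusted p = 0.00681 from limma).

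Slc1a3, which encodes GLAST, fell by 0.99 (SE 0.33, adjusted p = 0.0486 from limma), but the call did not survive leaving out adenoma 1, 2, 3, 5, 7, 8 or 9, or wild-type pituitary 1, 2 or 5, where the change lay between -1.03 and -0.72. It was -1.53 within prefix 08 and -0.62 within prefix 09. Slc1a2 and Slc1a3 are also 2 of 6 listed markers of posterior lobe glia. Of these, Aqp4 fell as well, and Gfap, Rax and Nkx2-1 did not pass (log2 fold changes of 0.24, -0.13 and -0.11). With both uptake genes included, the summed unlogged level of the 6 markers was 423 to 688 in adenomas, against 685 to 1138 in wild-type pituitaries. Slc1a3 had the highest mean of the 6 in both groups, so this sum largely follows the uptake genes themselves. It cannot show whether these glia were fewer, and a sum without the 2 uptake genes was not taken. Of 4 folliculostellate markers 3 fell, with summed levels of 433 to 785 in adenomas, against 702 to 2477 in wild-type pituitaries. The part of these cells in the lower uptake genes was not tested.

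Genes of glutamate and glutamine metabolism and of glutamine transport are given next, apart from the uptake genes above, of which 3 fell. Got1, the cytosolic enzyme that exchanges amino groups between glutamate and aspartate, ran from 10.62 through 12.00 to 12.72 in adenomas, against 9.39, 10.09, 10.08, 9.58 and 9.00 in wild-type pituitaries. The groups did not overlap, and Got1 rose by 2.17 (SE 0.31, adjusted p = 0.000394 from limma). It was the only 1 of 6 metabolic genes to pass. Of 4 glutamine transporters, Slc38a5 rose by 1.16 and Slc38a1 by 0.54, while Slc38a3 fell by 0.52 (adjusted p = 0.00876, 0.00312 and 0.00234 from limma). Slc17a5, a lysosomal sialic acid transporter of the same family as the VGLUT genes, rose by 0.65 (SE 0.17, adjusted p = 0.0147). The third VGLUT gene, Slc17a8, named after its values were seen, was at 5.34 ± 0.27 in adenomas and 5.48 ± 0.19 in wild-type pituitaries (SD, n = 9 and 5), with a log2 fold change of -0.14 (adjusted p = 0.500 from limma).

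Of 9 other ionotropic receptor subunits, 2 fell and none rose, beside 9.06% and 8.49% of all probe sets. Both were kainate subunits. Grik4, also a kainate subunit, did not pass (-0.33, adjusted p = 0.350 from limma), and neither did Grik1 and Grik2. Grik3, which encodes GluK3, was 5.90 ± 0.13 in adenomas and 6.69 ± 0.38 in wild-type pituitaries (SD, n = 9 and 5) and fell by 0.79 (adjusted p = 0.00103 from limma). Grik5, which encodes the high-affinity partner GluK5, was 7.05 ± 0.19 in adenomas and 7.66 ± 0.35 in wild-type pituitaries and fell by 0.61 (adjusted p = 0.00631 from limma). None of 7 metabotropic receptor genes passed in either direction, with a median of -0.08.

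Among the auxiliary and scaffold proteins of the receptors, Cacng5, an AMPA receptor auxiliary subunit, rose by 1.57 (SE 0.37, adjusted p = 0.00949) and Cnih2, another, fell by 0.73 (SE 0.19, adjusted p = 0.0167), out of 9 auxiliary genes measured (limma). The Cnih2 call was lost without wild-type pituitary 3 or 4. Nsf, an ATPase of vesicle fusion that also binds the GluA2 subunit, ran from 10.31 through 10.82 to 10.98 in adenomas, against 9.19, 9.62, 9.55, 9.15 and 8.90 in wild-type pituitaries. The groups did not overlap, and Nsf rose by 1.43 (SE 0.13, adjusted p = 1.41e-05 from limma).

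The postsynaptic scaffold genes Homer2 and Shank2 rose by 0.40 and 0.45 and Shank3 fell by 0.28 (adjusted p = 0.0306, 0.0301 and 0.0334 from limma). Each of these 3 calls was lost in 4 to 7 of the 14 fits that left out 1 sample. Homer2 lost its call with adenoma 1 or 3 left out, and likewise with wild type 1 or 5. Shank2 lost it with adenoma 1, 5 or 7 or wild type 1 or 2 left out, and Shank3 with adenoma 3, 5, 7 or 8 or wild type 3, 4 or 5 left out.

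**Figure D5:**
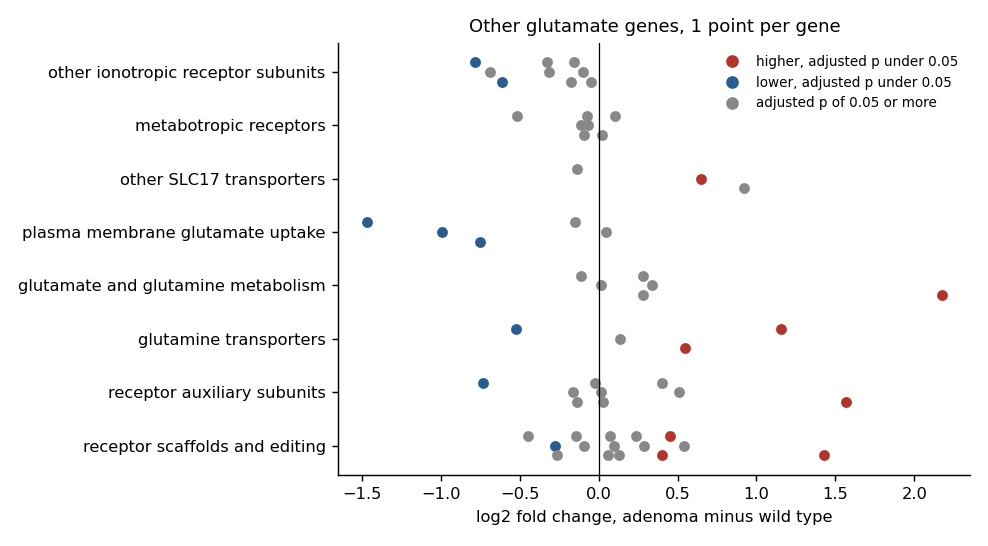
Log2 fold changes, adenoma minus wild type, of 58 other glutamate genes in 8 groups by role, 1 point per gene; red points rose and blue points fell at an adjusted p under 0.05, and grey points did not pass. The outermost points are Got1 at 2.17 and Slc1a2 at -1.47.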

How the data were processed

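RNA of 16 lesions and 5 wild-type pituitaries had been hybridised to 21 arrays. The authors deposited RMA gene-level log2 values (median polish, sketch-quantile normalization, Affymetrix Expression Console), which were used as given. Scanner files were not used here. RMA compresses low signals, so fold changes of dim probe sets are understated, and the number of arrays limits the precision. The platform table paired 15310 of 29214 probe sets with 1 symbol, 323 with several and 13581 with none.

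Lesions of 1 sample number were averaged, and adenomas were compared with wild-type pituitaries with limma 3.58.1 (R 4.3.3; lmFit, eBayes) over all probe sets, with Benjamini-Hochberg adjustment and a threshold of 0.05. An interaction term tested group by sex and a slope tested age. Intervals are 95%. The named genes were all 10 members, the listed other glutamate genes that passed, and the 5 probe sets most correlated with Slc17a6. The members and lists were chosen with earlier results of these data known. Slc17a8 was added to them after its values were seen.

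The labels do not say whether a sample number is 1 rat. The study's text gives more rats than there are numbers, so a number may hold several rats. If numbers share a rat, p-values are too small. Alternatives covered the lesion unit, blocks, sex, age, array scaling, dim probe sets, thresholds and samples left out.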

Additional observations from a re-analysis of the deposited data

Results flagged for a closer look

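Adenoma 6, a female of 8 months with a single lesion, lay far from the other 8 adenomas for 3 of the other glutamate genes examined. Its Slc1a2 value was 6.37, beside 5.81 for the next highest adenoma, a gap of 0.643 of the whole range. Its Grik5 value was 7.48, beside 7.14 for the next, a gap of 0.544 of the range. Its value of Slc17a8, the VGLUT3 gene, was 5.95, beside 5.46 for the next, a gap of 0.569 of the range. None of the 10 transporter and receptor genes had such a value in adenomas or wild-type pituitaries. In all 64 groups of values were examined, and chance alone marks about 1 in 20 groups. These groups did not cover all 58 other glutamate genes, and gaps of this kind occurred outside them and in other adenomas. Grm3, for example, was at 4.34 in adenoma 1 and at 4.54 to 4.66 in the other 8 adenomas.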

How the results depend on the processing

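The Slc17a6 difference, given as a description since its level selected the family, kept its call under each alternative tried except that with adenomas of 7 or 8 months alone, where 0 of the 10 genes were called higher and its log2 fold change was 2.72 with 2 adenomas left. Over the other alternatives its log2 fold change ran from 2.05 to 3.46. None of the 10 genes was called lower with lesions averaged, against 1, Slc17a7, with lesions as independent arrays (-0.21, adjusted p = 0.0428 from limma) and 1, the same gene, by the methods' t-test on all lesions (adjusted p = 0.0362). Of 297 values of the 10 genes under the alternatives, 34 changed sign, all without a call on either side. With the labels' replicate number as a block, 2 genes were called lower, Gria1 (-1.64, adjusted p = 0.0363 from limma) and Grik2 (-1.04, adjusted p = 0.00382). Its contrast rests on the 5 lesions, all of adenomas 1, 2 and 3, and the 5 wild-type pituitaries of equal number. Same-numbered samples correlated in their deviations at -0.05 to 0.20 and no wild-type pituitary correlated best with the lesion of its own number, so the numbers name the samples and do not pair them. The sex comparison called 1 gene, Grik1, higher in females without adenoma 3, and 1 with the prefix block without adenoma 3. Of the fits that left out 1 sample and kept adenoma 3, only that without adenoma 1 called it.

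The other glutamate genes, 8 higher and 8 lower, gave 1 and 1 within prefix 08, 3 and 5 within prefix 09, 0 and 0 with adenomas of 7 or 8 months alone, 4 and 1 with a fold over 2 added, 5 and 5 at an adjusted p under 0.01, and 5 lower with dim probe sets left out. Over all probe sets, 2479 were called higher and 2648 lower. The counts were 363 and 345 within prefix 08, 119 and 14 with adenomas of 7 or 8 months alone, 417 and 307 with a fold over 2 added, and 1101 and 1052 at an adjusted p under 0.01. Lower calls were 4142 with lesions as independent arrays and 4014 by the methods' t-test. Leaving out 1 sample gave 1573 to 3106 higher and 1649 to 3780 lower calls, the lowest of both without wild-type pituitary 4. Other probe set rules gave the same probe sets and were not run. Slc17a7, Gria3 and Grin2a lay below the table's median, where signal limits what can be seen. So did the Gria1 values of adenomas 2 and 5, and the Grik1 values of these adenomas and of the wild-type males. Among the other glutamate genes called, Slc38a3, Slc38a5 and Cacng5 had both group means below it.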
